A study of Homo sapiens with 24 samples.

Results

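Long non-coding RNA (lncRNA) genes that host small nucleolar RNAs (snoRNAs), and abundant lncRNAs measured beside them, were followed in human cells made to express 1 of 7 microRNAs (miRNAs). The genes were chosen by name: every symbol of the form SNHG (small nucleolar RNA host gene) plus a number, 28 genes in the annotation, and 14 listed lncRNAs, which makes 42 in all. Of these, 16 matched an identifier among the 29794 genes of the count tables (10 SNHG genes and 6 of the listed genes), and 13 had enough reads to be tested in at least 1 batch. These were MALAT1, NEAT1, NORAD, CYTOR, EPB41L4A-AS1, SNHG8, SNHG9, SNHG15, SNHG19, SNHG25, SNHG28, SNHG30 and SNHG32. SNHG28 was tested in batch 1 alone, with 5 to 14 reads per library there and 2 to 16 in batch 2. MEG3, SNHG18 and SNHG27 had between 0 and 2 reads in every library and were not tested. The other 26 names, GAS5, SNHG1, ZFAS1, DANCR, TUG1 and H19 among them, were not analysed here.

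The cells were Flp-In T-REx 293, a derivative of the human embryonic kidney line HEK293. They carried a lentiviral construct in which a doxycycline-inducible CMV promoter drives GFP, with a synthetic miRNA hairpin placed in an intron upstream of the GFP, and the control, called empty vector, was the same construct without a hairpin. All groups, controls included, received 1 µg/mL doxycycline for 7 days after selection in 1 mg/mL Geneticin for 6 days, and replicates were transduced and kept apart from each other. Batch 1 held miR-1, miR-122 and an empty vector group, with 2 libraries each. Batch 2 held miR-302a, miR-372, miR-373, miR-133a, miR-155 and an empty vector group of its own, with 3 libraries each. A miRNA was set against the controls of the same batch, so the comparisons within a batch share their control libraries. Exon reads summed to 20153452 to 21595191 for the libraries of batch 1, and to 13047400 to 35040778 for those of batch 2. Genes known in this line (EYA1, PAX2, NEFM, INA, VIM) were detected in every library, while the hepatocyte genes ALB, APOA1, TTR and SERPINA1 stayed at or below 0.407 CPM (read counts scaled to the library total), and the leukocyte genes PTPRC, CD3E and LYZ at or below 0.271 CPM. Of the skeletal muscle genes MYOD1, MYOG, ACTA1 and CKM the highest value was 1.21 CPM. Of the fibroblast genes, COL1A1 ran from 8.17 to 25.7 CPM and COL3A1 from 0.626 to 5.93 CPM, with DCN at or below 0.0772 CPM. In batch 2, replicate 2 of miR-302a, miR-155, miR-373 and miR-372 had the lowest values, -29.8 to -11.9, on the first residual component, which took 34.2% of the variance within groups. Replicate 2 of miR-133a (-6.28), replicate 1 of miR-373 (-3.63) and empty vector replicate 1 (-2.58) were also negative. On the other side, replicate 3 of miR-372 (19.8), miR-373 (15.5) and miR-155 (13.5) lay farther from 0 than miR-373 replicate 2. The 4 libraries with the lowest values are called the 4 that stand apart, and results that change without them are given with and without them.

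A snoRNA guides the chemical modification of ribosomal or spliceosomal RNA. Most human snoRNAs lie in introns of host genes and are cut from the spliced-out intron. The spliced exons of an SNHG gene make an RNA with little or no coding potential, and many such RNAs are degraded in the cytoplasm by nonsense-mediated decay (NMD) as they are translated. NORAD is a cytoplasmic lncRNA with many binding sites for Pumilio proteins. NEAT1 builds the paraspeckle, a nuclear body: the gene gives a short polyadenylated RNA and a long RNA whose end is cut by RNase P, and the long form is the scaffold. MALAT1 resides in nuclear speckles, and its end is also made by RNase P. A miRNA acts from Argonaute, pairs through its seed (bases 2 to 8) with a target RNA, and promotes its decay.

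The mature sequences, from RefSeq, are printed with the seed in capitals because the seed sets which sites were searched for in the lncRNAs.
miR-1-3p: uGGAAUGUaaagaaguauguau
miR-122-5p: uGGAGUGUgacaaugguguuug
miR-133a-3p: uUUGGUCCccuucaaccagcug
miR-155-5p: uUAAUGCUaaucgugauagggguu
miR-302a-3p: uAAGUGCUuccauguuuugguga
miR-372-3p: aAAGUGCUgcgacauuugagcgu
miR-373-3p: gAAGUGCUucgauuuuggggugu
The last 3 share a seed and are called the same-seed miRNAs. The exons of each lncRNA (annotation of GRCh37, strand of the gene) were searched for the reverse complement of the seed, called a 7mer-m8 match, and for that match followed by A, called an 8mer. A match is a run of letters and not a site shown to be bound.

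In empty vector cells of batch 1, levels were compared between genes as CPM per kb of exon length in the count tables. SNHG19, which hosts SNORD60, was highest at 95.8 ± 1.92 CPM per kb (SD, n = 2 here and for the batch 1 levels that follow). SNHG32, the host of SNORD48 and SNORD52, followed at 71.5 ± 4.30 and NORAD at 56.3 ± 1.36. SNHG8 stood at 37.2 ± 1.78 CPM per kb, MALAT1 at 23.6 ± 2.60 and SNHG30, the host of SNORD7, at 19.97 ± 0.279. Lower levels were those of SNHG15 (16.2 ± 0.305), SNHG9 (12.2 ± 0.196), NEAT1 (10.05 ± 0.915), EPB41L4A-AS1 (8.61 ± 0.529), SNHG25 (4.99 ± 0.566), CYTOR (2.12 ± 0.0880) and SNHG28 (0.300 ± 0.00481). The replicate ranges of neighbours in this order did not overlap, though those of MALAT1 and SNHG30, and of NEAT1 and EPB41L4A-AS1, lay closer to each other than the replicates of MALAT1 and NEAT1 did among themselves. As a ratio, the widest step was that between CYTOR and SNHG28. In batch 2 (n = 3) MALAT1, at 46.5 ± 17.97 CPM per kb, ranked above SNHG8, at 36.3 ± 2.46, and NEAT1, at 12.02 ± 0.803, above SNHG9, at 9.61 ± 0.759, and the order was otherwise that of batch 1. There MALAT1 overlapped both of its neighbours, NORAD and SNHG8, and the ranges of SNHG15 and NEAT1, and of SNHG9 and EPB41L4A-AS1, also overlapped. The level of NEAT1 was divided by 22767 exon bases, so it ranked low per kb although its mean level in batch 1 was 229 CPM. Where its reads fall along those bases was not examined. The level of SNHG19 was divided by 342 exon bases, where the annotation later searched for seed matches gives 614. Its place at the top rests on the shorter length. SNHG8 and CYTOR also differ in length, as given below. The libraries were made from polyadenylated RNA, and how fully they captured MALAT1, whose end is made by RNase P, was not tested.

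**Figure D1:**
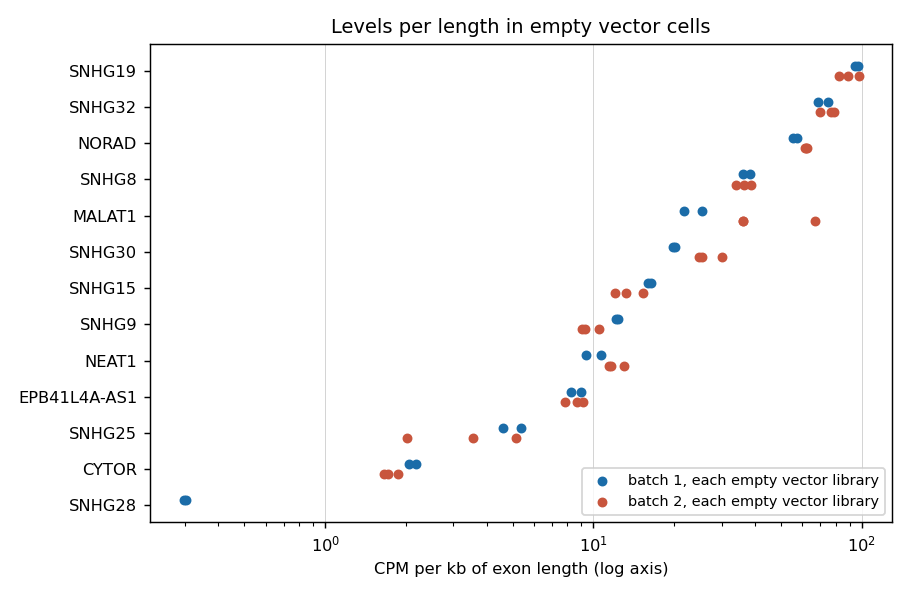
CPM per kb of exon length (log axis) of each lncRNA gene in every empty vector library, with batch 1 in blue and batch 2 in red. By the exon lengths of the count tables, SNHG19 was highest in both batches and SNHG28, tested in batch 1 alone, lowest. MALAT1 had the widest spread among the abundant genes in batch 2.

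With miR-155, NORAD was lower by 1.88-fold, the largest change of any of these genes in any comparison with the empty vector. NORAD stood at 177.7, 163.0 and 186.4 CPM in the miR-155 libraries and at 329.1, 334.2 and 330.8 CPM in the empty vector libraries. The groups did not overlap, and the 15 libraries of batch 2 that lacked miR-155 all lay at or above 303.4 CPM. The log2 fold change was -0.92 (SE 0.0756, edgeR quasi-likelihood test, Benjamini-Hochberg adjusted p = 4.8e-07 over 14054 genes), with a 95% interval of -1.07 to -0.76. NORAD was the 1 gene of 12 called with miR-155, at an adjusted p under 0.05, where 7.63% of all genes tested were called and 4.81% were called lower. Leaving out any 1 library, or the 4 that stand apart (log2 fold change -0.86), kept the call.

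NORAD was also compared between miR-155 and each other miRNA of batch 2, comparisons added after its values were seen. It was lower with miR-155 than with miR-133a (log2 difference -0.94, adjusted p = 7.1e-08), miR-302a (-0.91, adjusted p = 1.5e-07), miR-372 (-0.91, adjusted p = 1.2e-07) and miR-373 (-0.93, adjusted p = 1.2e-07, all by edgeR). Each of these comparisons called 4 of the 12 genes, where 16.7%, 17.3%, 18.8% and 18.1% of all genes were called, and the calls other than NORAD and NEAT1 are given after the comparisons with the empty vector. Against the empty vector, its log2 fold changes with those 4 miRNAs lay between -0.002 and 0.023. Their intervals ran from -0.16 at the lowest to 0.18 at the highest.

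NORAD lies on the minus strand of chromosome 20 (GRCh37, chr20:34633540-34638940). It held 3 matches to the miR-155 seed: an 8mer at chr20:34633950-34633957 and 7mer-m8 matches at chr20:34635425-34635431 and chr20:34636651-34636657. They lie 4.98, 3.51 and 2.28 kb from the 5′ end of the gene and are shown in the sense of the RNA with the match in capitals.
NORAD 8mer at 4.98 kb: attttaaattgAGCATTAAgggaatgcagc
NORAD 7mer-m8 at 3.51 kb: aaccccccctaAGCATTAcagatggcttat
NORAD 7mer-m8 at 2.28 kb: gaccatctctaAGCATTAcacgtgcctgta
This made 0.556 matches per kb, where the lncRNA genes tested in batch 2 held 0.0645 per kb and 18.1% of those 601 genes held at least 1. CYTOR held 2 miR-155 matches, MALAT1 1 and SNHG8 1, and none of these 3 was called with miR-155. For SNHG8 the annotation searched spans 6614 exon bases, where the count tables use 923. NORAD also held 1 7mer-m8 match to the same-seed miRNAs, and its level did not pass the test with any of the 3.

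NEAT1 was the gene called in most comparisons, 4 of 7, and it went in both directions. With miR-1 it rose 1.81-fold, from 243.6 and 214.2 CPM in the empty vector libraries to 408.0 and 421.2 CPM (log2 fold change 0.86, SE 0.0492, edgeR adjusted p = 1.6e-10). With miR-122, in the same batch, it stood at 241.1 and 248.2 CPM, which did not pass the test (log2 fold change 0.10, adjusted p = 0.3). Compared directly, NEAT1 was higher with miR-1 than with miR-122 by 0.76 log2 units (SE 0.0490, edgeR adjusted p = 4.6e-10), and leaving out any 1 library kept both calls.

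With the miRNAs that share a seed, NEAT1 fell. The empty vector libraries of batch 2 stood at 294.5, 260.6 and 265.6 CPM. The miR-302a libraries held 193.0, 181.7 and 175.9 CPM, the miR-372 libraries 191.5, 158.5 and 150.9 CPM, and the miR-373 libraries 210.0, 170.6 and 166.9 CPM. All 9 of these libraries lay below the lowest control. The log2 fold change was -0.58 with miR-302a (SE 0.151, edgeR adjusted p = 0.023), -0.71 with miR-372 (SE 0.151, adjusted p = 0.0047) and -0.59 with miR-373 (SE 0.150, adjusted p = 0.027), or 1.491-fold, 1.639-fold and 1.501-fold lower. NEAT1 was the 1 gene of 12 called in each, where 7.88% of all genes tested were called with miR-302a, 11.4% with miR-372 and 5.13% with miR-373, and 4.85%, 6.56% and 3.30% were called lower. The 3 comparisons share the control libraries and are not independent of each other. In a contrast added after the values were seen, the mean of the 3 miRNAs was below the empty vector by 0.63 log2 units (log2 fold change -0.625, SE 0.119, edgeR adjusted p = 0.0014, where 15.4% of all genes were called).

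The call with miR-372 held in each fit that left out 1 library. The call with miR-302a was lost without empty vector replicate 1 (adjusted p = 0.093) or 3 (0.052) and without miR-302a replicate 1 (0.064) or 3 (0.089, edgeR). The call with miR-373 was lost without empty vector replicate 1 (adjusted p = 0.12), 2 (0.058) or 3 (0.062) and without miR-373 replicate 2 (0.10) or 3 (0.12, edgeR). Over the fits without 1 library the log2 fold changes with these 2 miRNAs ran from -0.70 to -0.52. The direct comparisons among the 3 miRNAs called 0 of 12 genes (edgeR, 1 gene in each at an unadjusted p under 0.05), where 0% of all genes were called and 0.868%, 1.31% and 1.11% had an unadjusted p under 0.05. In the order of the pairs that follow these were SNHG19, SNHG32 and SNHG25, and the NEAT1 differences were 0.14 (95% interval -0.18 to 0.45) between miR-302a and miR-372, 0.01 (-0.31 to 0.33) between miR-302a and miR-373, and -0.13 (-0.44 to 0.19) between miR-372 and miR-373.

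With miR-133a, NEAT1 stood at 303.0, 216.8 and 276.8 CPM, a spread that took in the controls (log2 fold change -0.04, edgeR adjusted p = 0.91). With miR-155 it stood at 410.9, 264.0 and 423.6 CPM. Replicates 1 and 3 lay above all controls and replicate 2 among them, and the difference did not pass (log2 fold change 0.42, SE 0.150, edgeR adjusted p = 0.093). Without replicate 2, NEAT1 was called higher (log2 fold change 0.61, edgeR adjusted p = 0.0064), as it was without the 4 libraries that stand apart (0.61, adjusted p = 0.0011). In comparisons added after the values were seen, NEAT1 was higher with miR-155 than with miR-302a (log2 difference 1.00), miR-372 (1.13) and miR-373 (1.01), with edgeR adjusted p from 3e-05 to 0.00013. The log2 difference between miR-155 and miR-133a was 0.46 (edgeR adjusted p = 0.039), a call lost without miR-133a replicate 2 (adjusted p = 0.17) or 3 (0.072), without miR-155 replicate 1 (0.15) or 3 (0.18), and with only these groups in the fit (0.1).

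**Figure D2:**
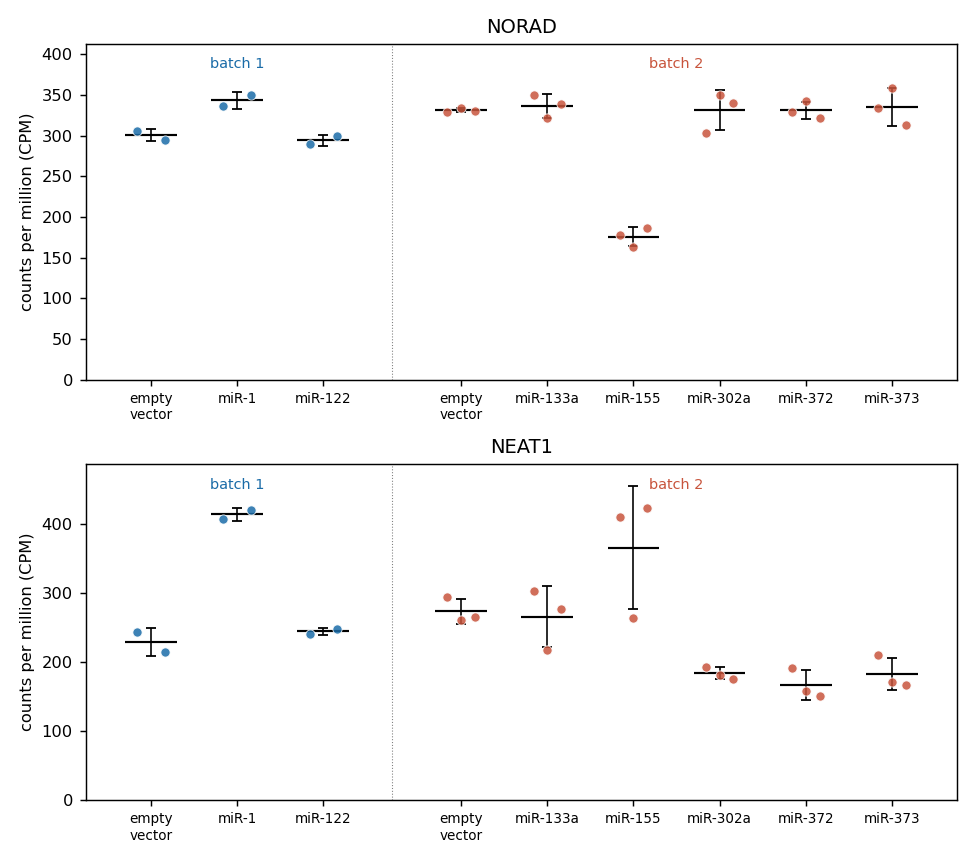
CPM of NORAD and NEAT1 in every library (points), with the group mean (bar) and SD (whiskers), n = 2 per group in batch 1 and 3 in batch 2. The 3 miR-155 libraries, at 163.0 to 186.4 CPM of NORAD, lie below all others, while NEAT1 is high in the 2 miR-1 libraries and below its controls in the 9 libraries of the same-seed miRNAs.

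NEAT1 lies on the plus strand of chromosome 11 (GRCh37, chr11:65190245-65213011). Its exons held 4 matches to the same-seed miRNAs, of which the 8mer is at chr11:65198209-65198216 and a 7mer-m8 match at chr11:65198579-65198585. These are shown with the match in capitals, as the 8mer and the match nearest to it.
NEAT1 8mer at 7.96 kb: cctcggcagtgAGCACTTAtggttttataa
NEAT1 7mer-m8 at 8.34 kb: tgactattccaAGCACTTcatatcagttaa
Of 9 annotated NEAT1 transcripts, 8 end within 3740 bases of the start of the gene, so all 4 matches lie in the 1 long transcript (22743 bases). Exon counts do not tell the 2 forms apart, and the libraries were made from polyadenylated RNA, which the short form carries. The 4 matches made 0.176 per kb, near the 0.170 per kb of the lncRNA genes tested, of which 41.6% held at least 1. NEAT1 also held 5 matches to the miR-1 seed, 2 of them 8mers, and 5 to the miR-122 seed, all beyond the short transcripts. So the gene carried matches both to miRNAs with which it was lower and to miR-1, with which it was higher.

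**Figure D3:**
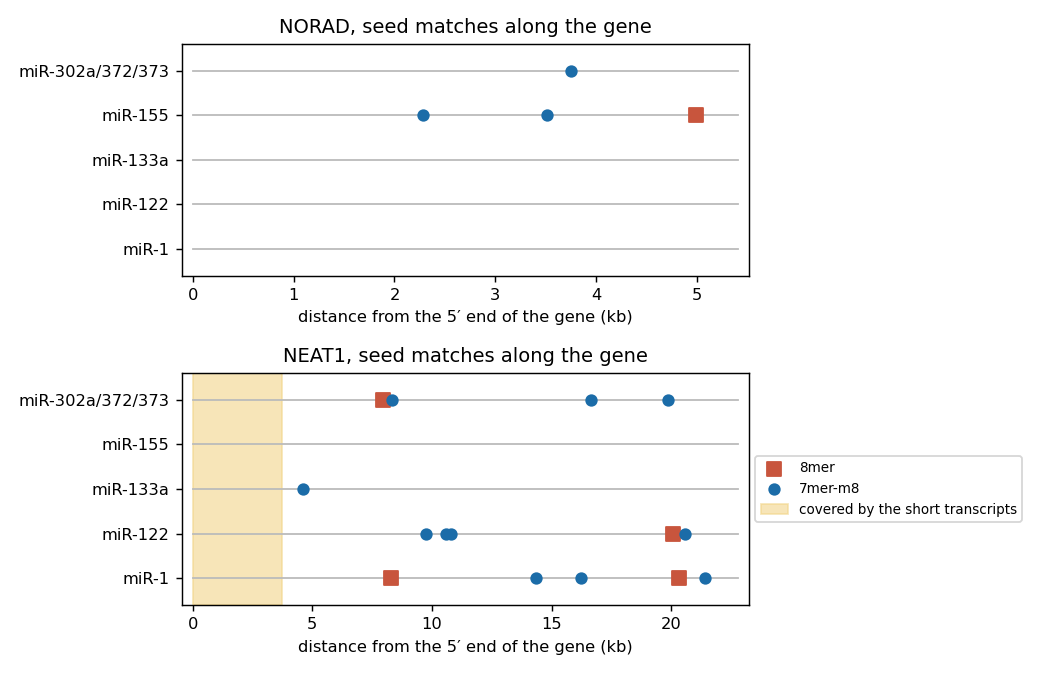
Seed matches along NORAD and NEAT1, by distance from the 5′ end of the gene in kb, for each miRNA seed. Squares are 8mers and circles 7mer-m8 matches. NORAD holds 3 miR-155 matches, and the matches in NEAT1 lie beyond the shaded stretch, which the 8 short transcripts cover.

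With miR-1, 7 of the 13 genes were called, 4 lower and 3 higher, where 24.5% of all genes tested were called (13.7% lower and 10.8% higher), and 10.9% of the 706 lncRNA genes. The 3 that rose were NEAT1, NORAD and SNHG15. The host genes SNHG19, SNHG8 and SNHG32 fell, as did CYTOR, whose name stands for cytoskeleton regulator RNA.

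SNHG19 was the host with the largest called change. It stood at 24.0 and 24.8 CPM with miR-1 and at 32.3 and 33.2 CPM in the controls, groups that did not overlap (log2 fold change -0.43, SE 0.0683, edgeR adjusted p = 0.00015). With miR-122 it stood at 35.1 and 32.1 CPM, and it was lower with miR-1 than with miR-122 by a log2 difference of -0.46 (edgeR adjusted p = 4.1e-05). In each of the 4 fits that left out 1 library its call against the empty vector held.

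SNHG8 held 29.9 and 21.6 CPM with miR-1 and 33.2 and 35.5 CPM in the controls. The miR-1 libraries were both lower but far from each other (log2 fold change -0.41, SE 0.102, edgeR adjusted p = 0.0059). Without miR-1 replicate 2 the log2 fold change was -0.19 and the call was lost (edgeR adjusted p = 0.17), and DESeq2 did not call it (adjusted p = 0.18).

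SNHG32 held 112.6 and 113.2 CPM with miR-1 and 122.9 and 133.8 CPM in the controls. It was lower by a small step (log2 fold change -0.19, SE 0.0483, edgeR adjusted p = 0.0087), and the call was lost without empty vector replicate 2 (log2 fold change -0.12, adjusted p = 0.087), miR-1 replicate 1 (adjusted p = 0.076) or miR-1 replicate 2 (0.066). SNHG32 was also lower with miR-1 than with miR-122, which stood at 143.6 and 136.2 CPM (log2 difference -0.31, edgeR adjusted p = 6.8e-05), and that call held in each fit without 1 library.

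SNHG15 was the host gene that rose, from 58.4 and 60.0 to 66.2 and 68.1 CPM (log2 fold change 0.18, SE 0.0520, edgeR adjusted p = 0.015). It stood at 66.5 and 62.7 CPM with miR-122, and the direct comparison of miR-1 with miR-122 did not call it (log2 difference 0.06, adjusted p = 0.44). Its call was lost without miR-1 replicate 1 (adjusted p = 0.055) or 2 (0.11), and with DESeq2 (0.082).

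NORAD rose from 305.5 and 295.2 to 336.3 and 350.5 CPM with miR-1 (log2 fold change 0.19, SE 0.0405, edgeR adjusted p = 0.0017). The call held in each fit without 1 library, with adjusted p up to 0.044. NORAD held no match to the miR-1 seed.

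CYTOR stood at 4.71 and 5.36 CPM with miR-1, at 6.82 and 6.43 CPM in the controls and at 7.78 and 7.63 CPM with miR-122. It was lower with miR-1 (log2 fold change -0.40, SE 0.135, edgeR adjusted p = 0.038), but the call was lost in every fit without 1 library, with adjusted p of 0.13 and 0.054 without empty vector replicates 1 and 2 and 0.26 and 0.066 without miR-1 replicates 1 and 2. The difference from miR-122 was called and held in these fits (log2 difference -0.61, edgeR adjusted p = 0.0014). CYTOR has a near-identical copy, MIR4435-2HG, so its reads are uncertain, and its exons span 3125 bases in the count tables and 17782 in the annotation searched. In the latter it held 3 miR-1 8mers.

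The 6 genes not called with miR-1 were MALAT1, EPB41L4A-AS1, SNHG9, SNHG25, SNHG28 and SNHG30. SNHG9, SNHG25 and SNHG30 had an unadjusted p under 0.05, as 36.1% of all genes tested had, with log2 fold changes of -0.32, -0.66 and 0.16 and adjusted p of 0.13, 0.14 and 0.079. SNHG28, the least abundant, had a log2 fold change of -0.81 with a 95% interval of -1.78 to 0.16, too wide at 5 to 14 reads to show a direction, and it shares exon sequence with VSIG8 on the same strand. The median over the 13 genes was -0.19, beside 0.00 over all genes tested and 0.04 over lncRNA genes.

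Directly between miR-1 and miR-122, 6 of 13 genes were called, NEAT1 and NORAD higher and SNHG19, SNHG32, SNHG8 and CYTOR lower with miR-1, where 31.2% of all genes were called. The SNHG8 call was lost without miR-1 replicate 2 (log2 difference -0.19, edgeR adjusted p = 0.15) or miR-122 replicate 1 (-0.31, adjusted p = 0.11), and with DESeq2 (-0.41, adjusted p = 0.15). Against the empty vector, miR-122 called 0 of 13 (edgeR, 2 genes at an unadjusted p under 0.05), where 5.92% of all genes and 1.13% of lncRNA genes were called and 19.7% of all genes had an unadjusted p under 0.05. Those 2 were SNHG32 (log2 fold change 0.13, adjusted p = 0.14) and SNHG15 (0.13, adjusted p = 0.18). By DESeq2 the count was also 0. NEAT1 was called higher without empty vector replicate 1 (log2 fold change 0.19, edgeR adjusted p = 0.0028) and SNHG32 without empty vector replicate 2 (0.19, adjusted p = 0.0068).

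**Figure D4:**
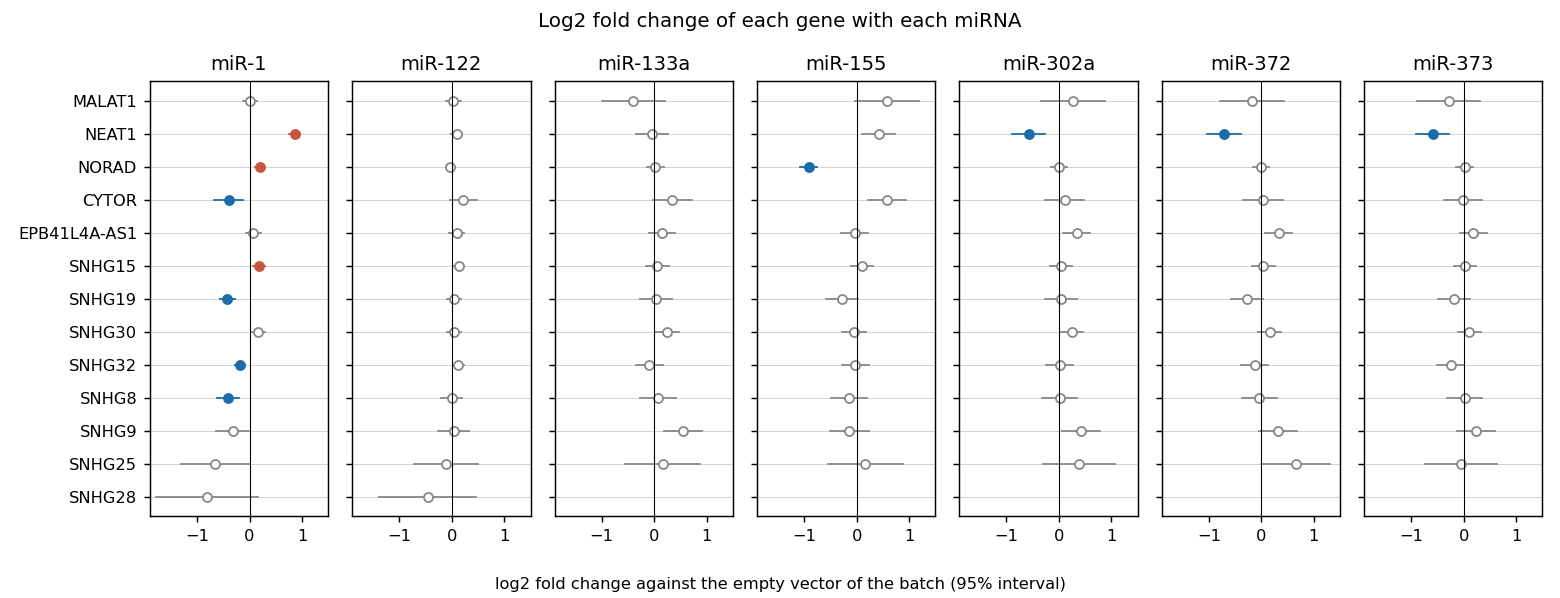
Log2 fold change of each gene against the empty vector of its batch, with its 95% interval, in 1 panel per miRNA. Filled points passed the adjusted p threshold of 0.05 (red higher, blue lower) and open points did not. miR-1 has 7 filled points, miR-122 and miR-133a none, and the other miRNAs 1 each.

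Start sites of the host genes were looked at because many host genes for snoRNAs are known to begin with a 5′ terminal oligopyrimidine tract, a C followed by pyrimidines at the first base of the RNA. RefSeq promoters (GRCh38.p14) gave 10 start windows for these genes (MALAT1 has a pair, and SNHG15, the host that rose with miR-1, SNHG9, SNHG25 and NEAT1 were not analysed here), and 2 of them, SNHG19 and SNHG32, began with C in a run of at least 5 pyrimidines, as 4.07% of 35116 promoters did. They are shown from 10 bases before the start, with the run in capitals.
SNHG19, chr16:2155339-2155368, minus strand: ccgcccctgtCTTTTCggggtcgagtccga
SNHG32, chr6:31834906-31834935, plus strand: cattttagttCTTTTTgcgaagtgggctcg
Both genes fell with miR-1, while SNHG8, which also fell, had a C without such a run.
SNHG8, chr4:118278752-118278781, plus strand: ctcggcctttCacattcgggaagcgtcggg
With a pair of genes this is a description and was not tested.

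MALAT1 was not called in any of the 7 comparisons, and its spread differed between the batches. In batch 1 it stood at 189.2 and 221.2 CPM in the controls, 219.6 and 194.5 with miR-1, and 197.2 and 221.9 with miR-122, so all 6 libraries overlapped. The log2 fold changes there were 0.01 with miR-1 (95% interval -0.13 to 0.15) and 0.03 with miR-122 (-0.11 to 0.17). MALAT1 held 2 miR-1 8mers.

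In batch 2 the empty vector libraries of MALAT1 stood at 585.2, 315.4 and 313.0 CPM, so 1 control lay far above the others. The miR-302a libraries stood at 588.1, 252.0 and 620.5 CPM, with replicate 2 low, and the miR-373 libraries at 396.5, 218.1 and 379.9 CPM, again with replicate 2 low. The miR-155 libraries were close together at 597.3, 659.4 and 550.1 CPM, as were the miR-372 libraries at 383.9, 367.7 and 323.7 CPM, and miR-133a gave 331.4, 369.4 and 221.3 CPM. The range of the controls overlapped that of every miRNA group. The SD of log2 CPM within groups was 0.450, beside a median of 0.150 and a 95th percentile of 0.469 over all genes tested, against 0.136 for MALAT1 in batch 1. The log2 fold changes ran from -0.40 with miR-133a (95% interval -1.002 to 0.21) to 0.57 with miR-155 (-0.03 to 1.18), and each of the 5 intervals was over 1 log2 unit wide and held 0. Without the 4 libraries that stand apart, MALAT1 was called higher with miR-302a (log2 fold change 0.58, edgeR adjusted p = 0.03). NORAD had a low spread in the same libraries, with an SD of 0.0789.

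**Figure D5:**
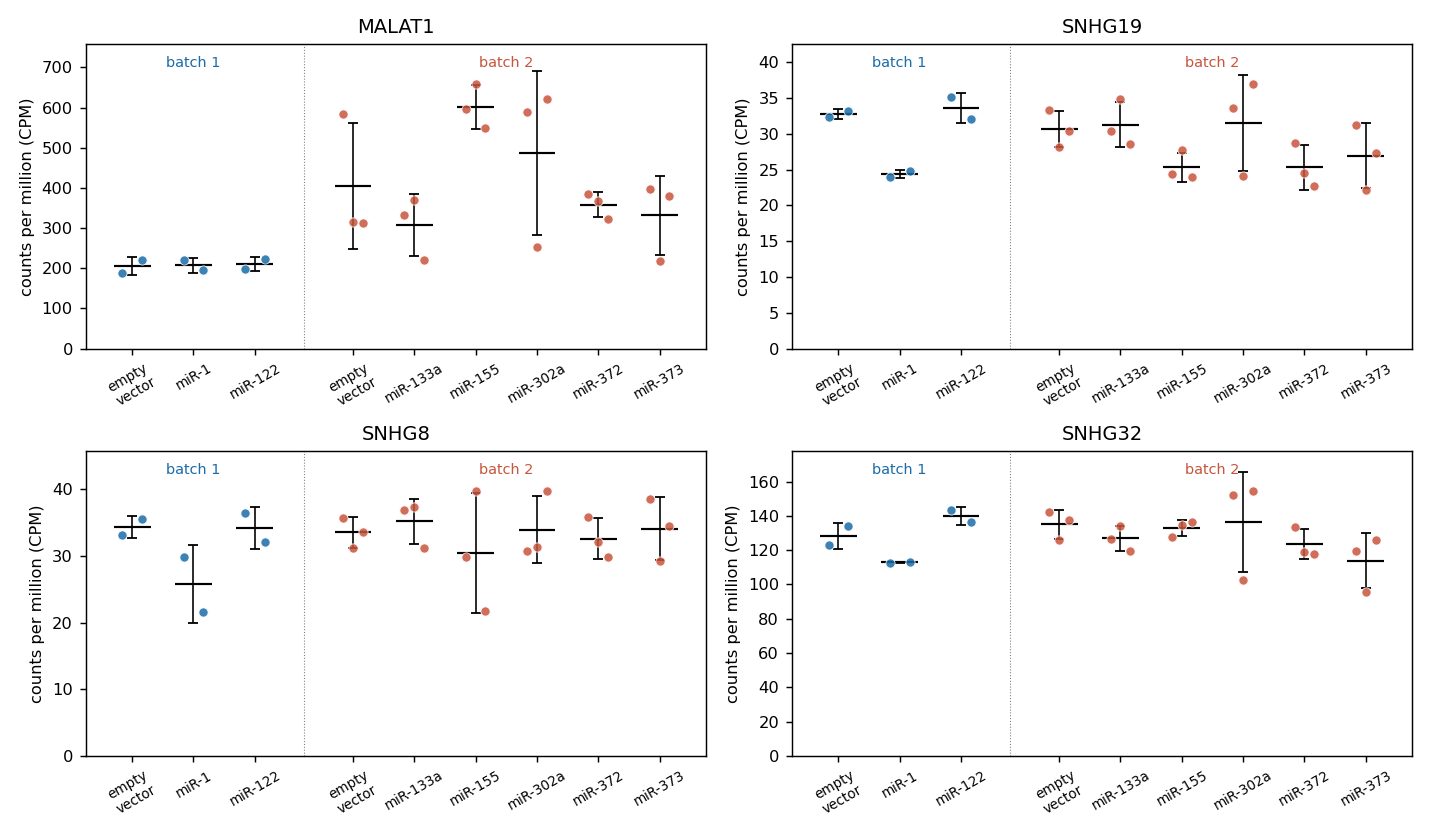
CPM of MALAT1, SNHG19, SNHG8 and SNHG32 in every library (points), with the group mean (bar) and SD (whiskers), n = 2 per group in batch 1 and 3 in batch 2. In batch 1 the host genes are lower with miR-1 while MALAT1 overlaps among all groups, and in batch 2 the MALAT1 replicates lie far apart in the empty vector and miR-302a groups.

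No SNHG gene passed the test against the empty vector in batch 2. SNHG9, a short host gene, stood at 6.67, 8.54 and 8.002 CPM with miR-133a and at 5.78, 5.01 and 5.11 CPM in the controls. The groups did not overlap, and the difference did not pass (log2 fold change 0.55, SE 0.172, edgeR adjusted p = 0.07). miR-133a called 0 of 12 genes (edgeR, 2 genes at an unadjusted p under 0.05, SNHG9 and SNHG30), where 5.34% of all genes were called and 20.4% had an unadjusted p under 0.05. DESeq2 called 1, SNHG9 (adjusted p = 0.046), which was also called without the 4 libraries that stand apart (log2 fold change 0.55, edgeR adjusted p = 0.019).

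CYTOR stood at 7.24, 9.48 and 7.72 CPM with miR-155 and at 5.85, 5.34 and 5.18 CPM in the controls. It just missed the threshold (log2 fold change 0.58, SE 0.175, edgeR adjusted p = 0.0502), and it passed with DESeq2 and with the likelihood ratio test. EPB41L4A-AS1, the host of SNORA13, had log2 fold changes of 0.34 with miR-302a (adjusted p = 0.092), 0.33 with miR-372 (adjusted p = 0.084) and 0.19 with miR-373 (adjusted p = 0.45, all edgeR). Without the 4 libraries that stand apart it was called higher with miR-302a (0.44, adjusted p = 0.0031) and miR-372 (0.38, adjusted p = 0.01), and with miR-302a also without its replicate 2 alone (0.44, adjusted p = 0.025). Its exons held 2 matches to the seed of these miRNAs.

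SNHG30 had log2 fold changes of 0.24 with both miR-133a (adjusted p = 0.2) and miR-302a (adjusted p = 0.17), and with miR-302a it was called without replicate 2 (0.34, edgeR adjusted p = 0.043). The 5 other SNHG genes tested in batch 2 (SNHG8, SNHG15, SNHG19, SNHG25 and SNHG32) passed in none of the 5 comparisons. SNHG15 and SNHG8 had log2 fold changes between -0.14 and 0.11, with intervals from -0.48 at the lowest to 0.41 at the highest. SNHG19 ran from -0.28 with miR-372 to 0.04 with miR-302a, and SNHG32 from -0.25 with miR-373 to 0.01 with miR-302a. SNHG25, at 8 to 38 reads per library, had intervals more than 1 log2 unit wide, and its largest log2 fold change was 0.66 with miR-372 (95% interval 0.003 to 1.31, edgeR adjusted p = 0.18).

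In the added comparisons of miR-155 with the other miRNAs, 4 genes besides NORAD and NEAT1 were called, and each of these calls was lost when 1 of several libraries was left out. MALAT1 was higher with miR-155 than with miR-133a (log2 difference 0.97, edgeR adjusted p = 0.026), with groups that did not overlap. That call was lost without miR-133a replicate 1 (adjusted p = 0.06) or 3 (0.13) and without miR-155 replicate 1 (0.056) or 2 (0.061). MALAT1 was also higher than with miR-373 (log2 difference 0.86, edgeR adjusted p = 0.045), a call lost without any 1 of the 6 libraries (adjusted p from 0.051 to 0.18), without the 4 libraries that stand apart (0.56, adjusted p = 0.065) and with DESeq2 (adjusted p = 0.053).

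SNHG9 was lower with miR-155 than with miR-133a (log2 difference -0.69, edgeR adjusted p = 0.0097). The call just failed without miR-133a replicate 2 (adjusted p = 0.05) and was lost without miR-155 replicate 3 (0.058). It was also lower than with miR-302a (log2 difference -0.55, edgeR adjusted p = 0.034), which was lost without miR-155 replicate 1 (0.06) or 3 (0.17), without miR-302a replicate 1 (0.11) or 3 (0.077), and with only these groups in the fit (0.12).

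EPB41L4A-AS1 was lower with miR-155 than with miR-302a (log2 difference -0.38, edgeR adjusted p = 0.036) and miR-372 (-0.37, adjusted p = 0.038). The first was lost without any 1 miR-155 library or miR-302a replicate 1 or 3 (adjusted p from 0.066 to 0.14), and the second without any 1 miR-155 library or miR-372 replicate 1 (0.067 to 0.16). CYTOR was higher with miR-155 than with miR-372 (log2 difference 0.54, edgeR adjusted p = 0.034) and miR-373 (0.59, adjusted p = 0.022). Its calls were lost without miR-155 replicate 2 (adjusted p = 0.14 against miR-372 and 0.11 against miR-373), without miR-155 replicate 3 or miR-372 replicate 2 or 3 for the first (0.055, 0.073 and 0.16), and without miR-373 replicate 1 or 3 for the second (0.056 and 0.078). Without the 4 libraries that stand apart neither was called (log2 differences 0.38, adjusted p = 0.17, and 0.52, adjusted p = 0.061).

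Over the seeds of the 7 miRNAs, of which the same-seed miRNAs share 1, 1 to 7 of the tested genes held an 8mer or 7mer-m8 match. The seed of the same-seed miRNAs matched 7 of 12 genes (CYTOR, EPB41L4A-AS1, MALAT1, NEAT1, NORAD, SNHG30 and SNHG8), and of these NEAT1 was called. The match lay in 2 of 66 annotated transcripts of MALAT1, 2 of 39 of CYTOR and 1 of 1 of NORAD. Each match lay in 1 of 9 transcripts of EPB41L4A-AS1 and of NEAT1. Which of these transcripts the cells express was not tested. The miR-1 seed matched 3 of 13 (CYTOR, MALAT1 and NEAT1), which were called lower, not called and called higher. The miR-122 seed matched NEAT1, SNHG28 and SNHG8, and the miR-133a seed matched NEAT1, none of them called. Among all lncRNA genes tested, 41.6% matched the same-seed miRNAs, 19.4% miR-1, 19.5% miR-122 and 14.1% miR-133a. The median exon length of those genes was 2416 bases in batch 1 and 2481 in batch 2, where NEAT1 has 22767. SNHG19, SNHG15, SNHG32, SNHG9 and SNHG25 held no match to the seed of any of the 7 miRNAs.

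The proteins that work with these RNAs were followed as lists, given by counts of genes called. Core snoRNP proteins bind the snoRNA itself. Of the 8, 3 rose with miR-1 and none fell (median log2 fold change 0.06), where 10.8% of all genes tested rose and 13.7% fell. The 3 were led by NHP2, a subunit of H/ACA particles (log2 fold change 0.37, SE 0.0434, edgeR adjusted p = 5.4e-06), with NOP58 and DKC1. NHP2 was also called higher with miR-122 (0.18, adjusted p = 0.016), miR-302a (0.44, adjusted p = 0.03) and miR-372 (0.46, adjusted p = 0.019), the 1 called gene of the list in each. No core protein was called with miR-133a, miR-155 or miR-373. Over all genes, 5.13% to 11.4% were called in the comparisons other than miR-1.

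Among 13 tested factors of snoRNP assembly, at most 1 was called per comparison. This was NOLC1, a chaperone of snoRNPs, higher with miR-1 (log2 fold change 0.25, adjusted p = 6e-05) and lower with miR-155 (-0.28, adjusted p = 0.023). It was NUFIP1 with miR-133a (0.59, adjusted p = 0.00036) and miR-372 (0.35, adjusted p = 0.017), and PIH1D1 with miR-122 (0.22, adjusted p = 0.013, all edgeR). With miR-302a and miR-373 none passed. The share of all genes called was 24.5% with miR-1 and 5.13% to 11.4% in the other comparisons.

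Protein-coding genes that also host snoRNAs were the longest list, with 49 tested. With miR-1, 7 were called lower and 10 higher, with a median log2 fold change of 0.01, where 24.5% of all genes were called (13.7% lower and 10.8% higher). The largest change was that of RPL23A, a ribosomal protein gene (-0.44, SE 0.0460, edgeR adjusted p = 9.5e-07). Those called lower took in RPL10, RPL13A, RPL23 and RPL23A, which encode ribosomal proteins, EEF1B2, which encodes an elongation factor, and TNPO2. Those called higher took in HSPA8, HSPA9, GNL3, DKC1, CHD8 and TBRG4. In the other comparisons 0 to 3 of the 49 were called, with TBRG4 higher in miR-133a (0.24, adjusted p = 0.025), miR-302a (0.29, adjusted p = 0.0056), miR-372 (0.38, adjusted p = 0.00042) and miR-373 (0.302, adjusted p = 0.005), EIF4A1 lower with miR-133a (-0.39, adjusted p = 0.008), and CHD8 lower with miR-155 (-0.48, adjusted p = 0.026). The share of all genes called in those comparisons was 5.13% to 11.4%.

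Of 17 NMD factors tested, where 24.5% of all genes were called with miR-1, 5 rose with miR-1 (UPF1, SMG1, SMG5, CASC3 and DHX34) and 1 fell, MAGOHB, a subunit of the exon junction complex (log2 fold change -0.30, SE 0.0615, edgeR adjusted p = 0.0015). Elsewhere 1 fell with miR-133a (CASC3, -0.35, adjusted p = 0.018), 1 rose with miR-155 (SMG9, 0.24, adjusted p = 0.049), and none passed with miR-122, miR-302a, miR-372 or miR-373. Reads were counted per gene, which does not separate an NMD substrate from other transcripts of the same gene. Of 16 genes with transcripts known as NMD substrates, 3 fell with miR-1 (ATF4, DDIT3 and HNRNPH1) and 1 rose (CDKN1A). This made 4 of 16 in all, beside the same 24.5%. DDIT3 had the largest of these changes (-0.29, edgeR adjusted p = 0.019). CDKN1A fell with miR-122 (-0.32, adjusted p = 3e-04) and miR-302a (-0.37, adjusted p = 0.023) and rose with miR-1 (0.29, adjusted p = 0.00028) and miR-155 (0.52, adjusted p = 0.0018). UPP1 rose with miR-302a (0.52, adjusted p = 0.037), miR-372 (0.59, adjusted p = 0.014) and miR-373 (0.55, adjusted p = 0.032). In the comparisons other than miR-1, 0 to 2 of the 16 passed, and 0 to 1 of the 17 NMD factors, where 5.13% to 11.4% of all genes were called. CDKN1A is also a well known target of p53.

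Of the 14 paraspeckle proteins, which assemble on NEAT1, 1 was called higher with miR-1, SMARCA4 (log2 fold change 0.13, edgeR adjusted p = 0.022), and 1 lower. Over all genes tested, 10.8% were called higher and 13.7% lower with miR-1. None of the 14 was called with miR-302a, miR-372 or miR-373 (median log2 fold changes -0.03, 0.04 and -0.02), in which NEAT1 was called lower, or in the other comparisons. The shares of all genes called with the same-seed miRNAs were 7.88%, 11.4% and 5.13%, so a list of 14 would hold few calls at those shares. Of the 4 NORAD-binding proteins on the list, RBMX fell with miR-1 (-0.19, edgeR adjusted p = 0.001) and none passed with miR-155, where the median was 0.00. Over all genes, 24.5% were called with miR-1 and 7.63% with miR-155.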

How the data were processed

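RNA-seq was performed on 24 libraries of Flp-In T-REx 293 cells, grouped by the labels. Directional libraries were made by the authors from 1000 ng of RNA with poly(A) selection. The authors clipped adapters, aligned reads to hg19 with TopHat2 2.1.1, counted reads over exons by strand with featureCounts at high mapping quality, and deposited raw counts per gene with the feature length in bases, an other measure of no sample, per batch. The authors' tables of fold changes, p-values and q-values (edgeR 3.24.3) hold their own comparisons and were not used. Poly(A) selection captures little of RNAs that lack a tail, such as the long form of NEAT1. The end of MALAT1 is also made by RNase P, and how its capture varied between libraries was not tested.

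Identifiers were matched by number to GENCODE for GRCh37 (28543 of 29794 had a symbol). The counts were fitted with edgeR 4.0.16 under R 4.3.3: filterByExpr (minimum count 10), TMM factors, a quasi-likelihood fit over all groups of a batch, Benjamini-Hochberg adjustment over all 14348 (batch 1) or 14054 (batch 2) genes tested, a threshold of 0.05, and a prior count of 0.125. Standard errors were obtained by dividing the size of the log2 change by the root of its F statistic. CPM uses TMM-scaled totals, and errors are SD. Intervals are 95%. Members and lists were chosen with earlier results of these data known. Genes described with values in every library were those called in at least 3 of 7 comparisons, the 2 largest called changes per comparison, and MALAT1, NEAT1 and NORAD (GAS5 and SNHG1, also named there, were not analysed here). The other called genes are given because the rule asks that every gene be accounted for. Genome and annotation searches used Python 3.11.15 with pysam 0.24.0.

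Alternatives were DESeq2 size factors, DESeq2 1.42.0, the likelihood ratio test, no filter, more than 1 CPM in every library, only the groups compared, the replicate block, a minimum log2 change of 0.2, and each library left out. Leaving out 4 libraries, the mean of 3 miRNAs, and miR-155 against other miRNAs were added after seeing the data. Replicate numbers were checked as pairs by the correlation of deviations from group means. Among the planned comparisons, miR-302a and miR-372 had all 3 above 0.1 (0.227, 0.336 and 0.161). Among the added ones, so had miR-155 with miR-133a, miR-302a and miR-372 (0.112 to 0.614). The pairing comes from these values and from no label. The blocked fit called 0 genes between miR-302a and miR-372, and kept the calls of miR-155 against other miRNAs. Replicate counts differed by more than sampling noise within every group (chi-square per degree of freedom 1.81 to 35.28). The functions were also tested on simulated counts with known changes, for miR-1 and miR-133a against the empty vector. Some genes and sequences are not reported here.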

Additional observations from a re-analysis of the deposited data

How the results depend on the processing

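Of 152 alternative counts of genes called, 120 equalled the main count or were within 1.5 times of it. These take in main counts of 0 that stayed at 0, as between the same-seed miRNAs. With miR-1, 7 genes became 4 with DESeq2 (NEAT1, NORAD, SNHG19 and SNHG32) and 4 with a minimum log2 change of 0.2 (CYTOR, NEAT1, SNHG19 and SNHG8). With miR-133a, 0 became 1 (SNHG9) with DESeq2, the likelihood ratio test, the replicate block, only the 2 groups compared, and without the 4 libraries that stand apart. With miR-155, 1 became 2 with DESeq2 size factors, DESeq2, the likelihood ratio test and more than 1 CPM in every library (each adding CYTOR) and without the 4 libraries (adding NEAT1), 3 with the replicate block (CYTOR and NEAT1) and 4 with no filter (CYTOR, NEAT1 and MALAT1). Without the 4 libraries miR-302a called 4 genes (EPB41L4A-AS1, MALAT1, NEAT1 and SNHG30) and miR-372 called 2 (EPB41L4A-AS1 and NEAT1), and the replicate block also gave miR-372 2. The causes were not tested. The block pairs numbers that, against the empty vector, did not correlate above 0.1 in all replicates, and it changed no other count by over 1.5 times. CYTOR with miR-1 missed the threshold under the block (adjusted p = 0.053).

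Leaving out 1 library gave 3 to 6 genes with miR-1 (3 without miR-1 replicate 2 and 4 without replicate 1), 0 to 1 with miR-122 (NEAT1 without empty vector replicate 1, SNHG32 without replicate 2), 0 with miR-133a, 1 to 2 with miR-155 (2 without its replicate 2), 0 to 3 with miR-302a (3 without its replicate 2), 1 with miR-372, 0 to 1 with miR-373, 5 to 7 between miR-1 and miR-122, and 0 between each pair of the same-seed miRNAs. In batch 1 the lone library left in a group is assumed to vary like the other groups. Of 443 alternative fold changes of called genes, 371 kept their call, 72 missed the threshold and 0 changed sign. With 7mer-A1 matches counted too, the miR-1 seed matched 4 genes and not 3, the miR-122 seed 5 and not 3, and the miR-133a seed 2 and not 1. The gene added for miR-1 was SNHG8, called lower with miR-1, which held 2 such matches in the annotation searched.

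The groups of 2 or 3 libraries limit precision, and SNHG25 and SNHG28 are limited by depth. Exon counts do not separate the NEAT1 forms. CYTOR has a near-identical copy, and how many of its reads the mapping quality filter removed was not examined.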
